A study of Gallus gallus with 12 samples.

Results

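CDXB, EVX1 and GREB1 are 3 genes of the caudal end of the embryo, picked by symbol from the 13106 genes of the deposited chick count tables. CDXB, which the deposited annotation describes as caudal type homeobox 4 (CDX4), encodes a transcription factor of the caudal family. EVX1 encodes a homeodomain transcription factor related to Drosophila even-skipped. GREB1 is named for its response to estrogen in human breast cancer cells, where its product acts with the estrogen receptor. Each symbol matched 1 row in both tables, and all 3 genes were counted in 12 of 12 libraries, as were 4909 genes (37.5%) in all.

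As background, the vertebrate trunk and tail grow from cells kept at the posterior end of the embryo, in and around the node and the primitive streak. In mouse, Cdx genes are switched on there by Wnt, FGF and retinoic acid signals, and Cdx proteins act on Hox genes that set position along the axis. Evx1 is expressed in the mouse primitive streak and tail bud and lies beside the Hoxa cluster.

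Tissue was taken from 6 chick (Gallus gallus) embryos, each giving 1 node and 1 lateral library. The node library held fluorescent cells still in the mature Organiser, or Hensen's node, marked when gastrulation ended. The lateral library held the ectoderm and mesoderm beside it, named in the design text as neural plate and emerging presomitic mesoderm. In the 3 manual embryos both tissues were dissected by hand while alive, and in the 3 LCM embryos they were cut by laser capture microdissection from paraffin sections that had been fixed in modified methacarn. The first embryo by either method was at 8 somites, and embryos 2 and 3 were at 9. The labels name no strain and no genetic change. Both methods were applied to different embryos, so method, fixation and embryo cannot be told apart.

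Total counts ran from 18568123 to 30997461 per library, and 8378 to 11497 genes were counted in manual and 7235 to 10011 in LCM libraries. TBXT (listed as T), the T-box factor of streak and notochord, was counted more in node than in lateral tissue of every embryo. Manual lateral embryo 1 had 104 genes with at least 100 counts that no other embryo's libraries held, leaving aside the LCM node library of embryo 2. Of these, 100 were counted in that LCM node library. Pooled over the 104 genes, its counts were 6.22% of the manual lateral counts. The share differed between genes. Outside the 104, APOA1 had 138 counts there against 3700 in manual lateral embryo 1, and TTR 166 against 4485. Both lie below the pooled share, so subtracting it can remove too much. How many genes lie above it was not tested. At the pooled share, carried reads would make up 134 of 6673 counts of CDXB, 14 of 1517 of EVX1 and 382 of 18163 of GREB1 in the LCM node library of embryo 2. This library also had a TMM scaling factor of 0.657, and of 1.295 with the carried share subtracted, whereas the other 11 lay between 0.87 and 1.285. Levels below are therefore given as the authors' normalized counts, and the members' fitted differences that involve LCM node tissue are given with and without the carried share, where the 2 differ in sign or by over 0.1.

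CDXB was abundant in both tissues. Its mean log2 CPM (counts scaled to library size) lay above that of 92.2% of the 9491 genes tested. In manual embryos 1 to 3 its counts were 4173, 2377 and 3083 in node and 2153, 1989 and 3353 in lateral tissue. In LCM embryos 1 to 3 they were 6304, 6673 and 7190 in node and 5456, 8035 and 7554 in lateral tissue. No library lacked it, and its lowest count was 1989. On the authors' normalized scale the manual node libraries held 3111.7, 2608.4 and 3519.4 and the manual lateral libraries 1465.5, 1950.0 and 3493.0. The LCM node libraries held 5230.4, 6047.4 and 5134.2 and the LCM lateral libraries 5708.1, 6628.2 and 4731.4. Every LCM library thus lay above every manual one, while node and lateral ranges overlapped within each method.

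EVX1 had far fewer counts by hand dissection than by laser capture. Manual embryos 1 to 3 gave 255, 19 and 123 node counts and 219, 157 and 189 lateral counts. LCM embryos 1 to 3 gave 2068, 1517 and 1552 node counts and 3038, 1680 and 814 lateral counts. Normalized, the manual libraries ran from 20.8 to 196.9 and the LCM libraries from 509.8 to 3178.4, with no overlap. The lowest value was that of the manual node library of embryo 2. The highest was that of the LCM lateral library of embryo 1.

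GREB1 was among the most counted genes, with a mean log2 CPM above that of 97.0% of genes. Manual embryos 1 to 3 gave 8883, 5983 and 5904 node counts and 6145, 9083 and 9621 lateral counts. By LCM, embryos 1 to 3 gave 6385, 18163 and 22093 node counts and 16414, 28430 and 33379 lateral counts. The 3 manual node libraries were nearly equal once normalized, at 6623.8, 6565.5 and 6739.8, whereas the manual lateral libraries held 4182.8, 8904.7 and 10022.7. The LCM node libraries held 5297.6, 16460.3 and 15776.0 and the LCM lateral libraries 17172.3, 23452.5 and 20906.8. The LCM node library of embryo 1 was low and fell below all manual node libraries. All 3 LCM lateral libraries lay above all other 9 libraries.

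**Figure D1:**
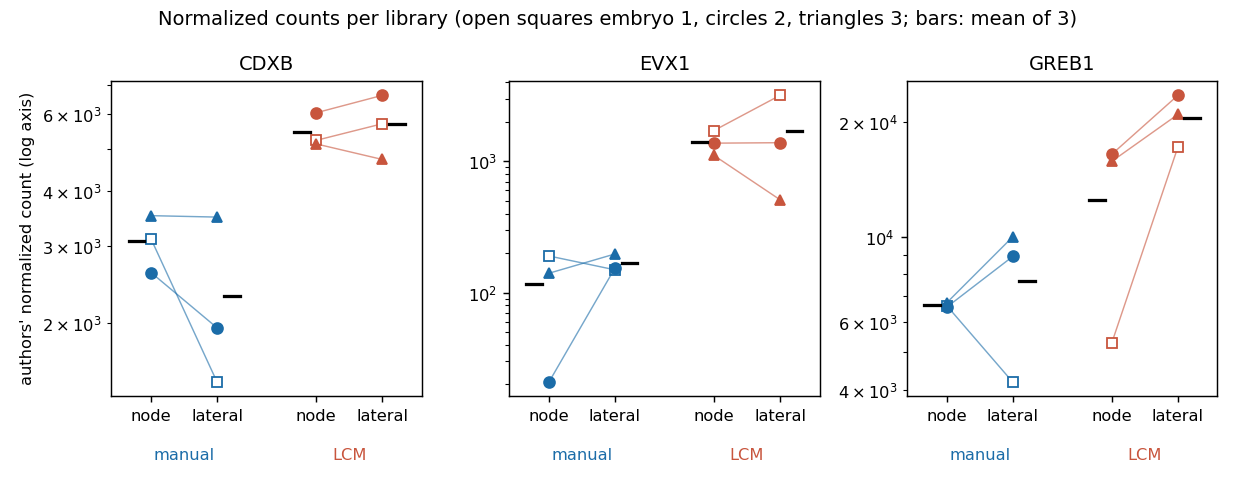
Normalized counts (log axis) of CDXB, EVX1 and GREB1 in each library, with node and lateral libraries of an embryo joined by a line and black bars for the mean of 3 embryos. For CDXB and EVX1 all 6 LCM libraries sit above all 6 manual libraries, and for GREB1 the LCM node library of embryo 1 sits at 5297.6, among the manual values.

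Node and lateral tissue of the same embryo were compared to ask whether the Organiser holds more or less of these 3 transcripts than the cells next to it. Per embryo, the log2 ratio of node over lateral CDXB was 1.09, 0.42 and 0.01 in manual and -0.13, -0.13 and 0.12 in LCM embryos (authors' size factors). CDXB was thus higher in the node of 4 of 6 embryos, a pattern that 32.3% of tested genes met or passed, and manual embryo 1 had the widest ratio. With TMM scaling, which the fits use, the ratio in LCM embryo 2 was 0.63 and CDXB was again higher in 4 of 6. The fitted log2 fold change was 0.31 ± 0.29 (SE) over both methods, 0.49 ± 0.43 in manual and 0.13 ± 0.43 in LCM embryos. Without manual embryo 1 it was 0.03 over both methods and 0.20 in manual embryos. Subtracting the carried share gave 0.18 over both methods and -0.12 in LCM embryos. In bulk tissue, fewer cells that express a gene and less RNA per cell cannot be told apart.

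For GREB1 the log2 ratio of node over lateral was 0.66, -0.44 and -0.57 in manual and -1.7, -0.51 and -0.41 in LCM embryos. GREB1 was thus lower in the node of 5 of 6 embryos. Of all genes tested, 8.95% were lower in the node of at least 5 embryos. With TMM scaling the ratio in LCM embryo 2 was 0.25 and GREB1 was lower in 4 of 6. The fitted log2 fold change was -0.40 ± 0.28 over both methods, -0.13 ± 0.39 in manual and -0.68 ± 0.40 in LCM embryos. Subtracting the carried share gave -0.54 ± 0.27 over both methods and -0.94 ± 0.37 in LCM embryos. Without LCM embryo 1, which had the widest ratio, the value was -0.14 over both methods and -0.14 in LCM embryos. Without manual embryo 1 it was -0.75 over both methods and -0.52 in manual embryos.

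EVX1 showed no common direction. Its log2 ratio of node over lateral was 0.35, -2.88 and -0.49 in manual and -0.89, -0.01 and 1.12 in LCM embryos. The fitted log2 fold change was -0.31 ± 0.75 over both methods, -0.94 ± 1.13 in manual and 0.27 ± 1.07 in LCM embryos. Once that share was subtracted it was -0.45 ± 0.74 over both methods and 0 to 2 decimals in LCM embryos. The manual value rests mainly on embryo 2, with 19 node counts against 157, and was -0.06 without that embryo, with -0.01 over both methods.

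None of the 3 members passed for node against lateral in edgeR's quasi-likelihood test, with adjusted p = 0.999 for each over both methods and 1.0 for each in manual embryos. In LCM embryos the adjusted p was 1.0 for CDXB and EVX1 and 0.906 for GREB1. Such values do not show equal levels. Over both methods all 9 organiser and notochord markers tested were positive, with a median log2 fold change of 6.27, and edgeR called 0. With the carried share subtracted 8 of 9 were positive and the median was 6.04. Over both methods edgeR called 0.0% of 9491 genes, limma voom called 0.0%, DESeq2 called 2.89% of 8387 genes, and 324 genes (3.41%) had an unadjusted edgeR p under 0.05. In manual embryos edgeR called 0.0%, limma voom 0.0% and DESeq2 0.489%, with 93 genes (0.98%) at an unadjusted edgeR p under 0.05. In LCM embryos edgeR called 0.0211%, limma voom 0.0% and DESeq2 9.93%, with 495 genes (5.22%) at an unadjusted edgeR p under 0.05. No member was among those called by DESeq2, where the smallest adjusted p was that of GREB1 in LCM embryos (DESeq2 adjusted p = 0.213). The difference between methods in the node minus lateral effect was -0.36 ± 0.61 for CDXB, 1.21 ± 1.56 for EVX1 and -0.55 ± 0.56 for GREB1 on the log2 scale (edgeR adjusted p = 1.0 for each). With the carried share subtracted these were -0.61, 0.94 and -0.80. In that test edgeR called 0.0% of genes, limma voom 0.0% and DESeq2 3.18%, and 246 genes (2.59%) had an unadjusted edgeR p under 0.05.

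**Figure D2:**
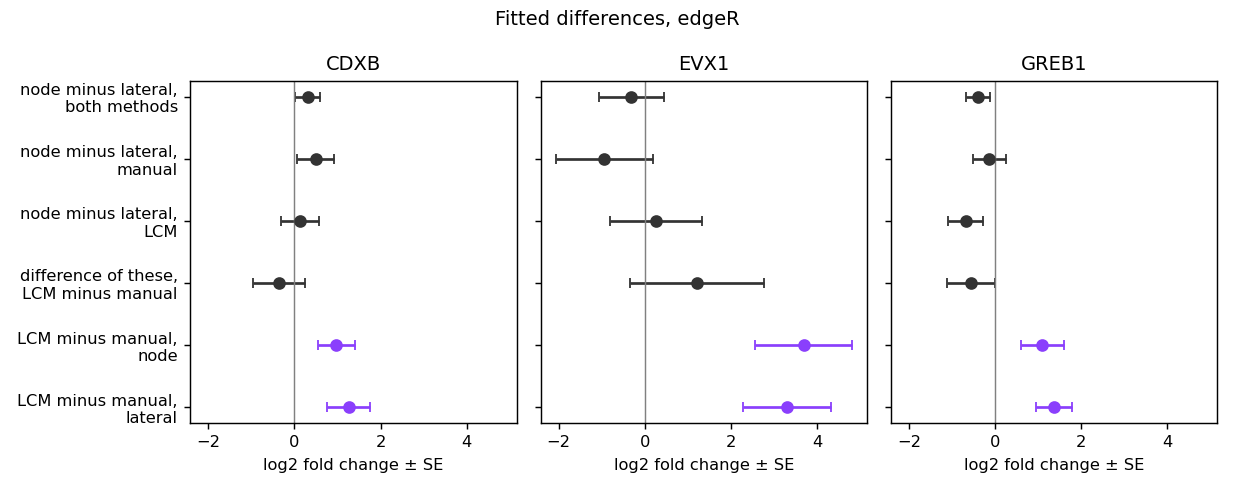
Fitted log2 fold changes with standard errors from edgeR for the 3 members in 6 comparisons, node against lateral in black and LCM against manual in violet. Only the violet values stand clear of 0 by more than their standard error in all 3 genes, with EVX1 at 3.69 in node and 3.30 in lateral tissue.

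Laser-captured and hand-dissected tissue of the same kind were compared next. All 3 members had higher values in LCM tissue, and EVX1 differed most. In node tissue the mean normalized count of EVX1 was 117.1 ± 87.0 by hand and 1399.6 ± 304.5 by LCM (SD, n = 3 each), a log2 fold change of 3.69 ± 1.13. In lateral tissue it was 166.6 ± 26.3 by hand and 1691.4 ± 1360.2 by LCM, a log2 fold change of 3.30 ± 1.02. The edgeR adjusted p was 0.381 in node and 0.307 in lateral tissue, and the DESeq2 adjusted p was 0.004 and 0.00473. EVX1 therefore passed in DESeq2 and not in edgeR or limma voom (adjusted p = 0.243 and 0.39). Without manual embryo 2 the node value was 3.06, and without LCM embryo 1 the lateral value was 2.45.

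CDXB had 3079.8 ± 456.3 by hand and 5470.7 ± 501.8 by LCM in node tissue (SD, n = 3 each), a log2 fold change of 0.97 ± 0.43 (edgeR adjusted p = 0.496). In lateral tissue it had 2302.8 ± 1058.8 and 5689.2 ± 948.5, a log2 fold change of 1.26 ± 0.50 (edgeR adjusted p = 0.418). GREB1 had 6643.0 ± 88.7 and 12511.3 ± 6256.6 in node tissue, a log2 fold change of 1.10 ± 0.50 (edgeR adjusted p = 0.501). In lateral tissue it had 7703.4 ± 3099.7 and 20510.5 ± 3158.8, a log2 fold change of 1.37 ± 0.41 (edgeR adjusted p = 0.307). DESeq2 passed neither gene, with the smallest adjusted p, 0.0934, for GREB1 in lateral tissue. With the carried share subtracted from the LCM node library of embryo 2, the node values were 0.70 for CDXB, 3.46 for EVX1 and 0.79 for GREB1.

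These counts have to be read beside all other genes. In node tissue edgeR and limma voom called 0.0% of 7985 genes, DESeq2 called 5.37% of 7333 (2.29% higher and 3.08% lower in LCM), and 802 genes (10.0%) had an unadjusted edgeR p under 0.05. In lateral tissue edgeR and limma voom called 0.0% of 7851 genes, DESeq2 called 5.1% of 7234 (1.55% higher and 3.55% lower), and 748 genes (9.53%) had an unadjusted edgeR p under 0.05. All 3 LCM libraries lay above all 3 manual libraries for CDXB and EVX1 in node tissue, as for 8.9% of tested genes. In lateral tissue this held for all 3 members and for 8.78% of genes. All 6 LCM libraries lay above all 6 manual libraries for CDXB and EVX1 and for 2.09% of genes. A change of at least the size of EVX1, in either direction, was found for 7.94% of genes in node and 9.46% in lateral tissue. For CDXB those shares were 54.1% and 42.5%, and for GREB1 49.1% and 39.3%.

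The median log2 fold change over all genes tested was 0.124 in node and -0.035 in lateral tissue. Over the genes counted in all 12 libraries it was 0.264 and 0.086. With DESeq2 size factors the medians over all genes tested were 0.088 and -0.006, and with the carried share subtracted the node median was -0.089. For node minus lateral over both methods that subtraction took it from 0.171 to -0.065, and in LCM embryos from 0.36 to -0.098. For LCM minus manual, CDXB, EVX1 and GREB1 stayed positive in both tissues under each scaling tried. The number of genes counted ran lower in LCM than in manual libraries, with overlap, and its part in these differences was not tested.

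**Figure D3:**
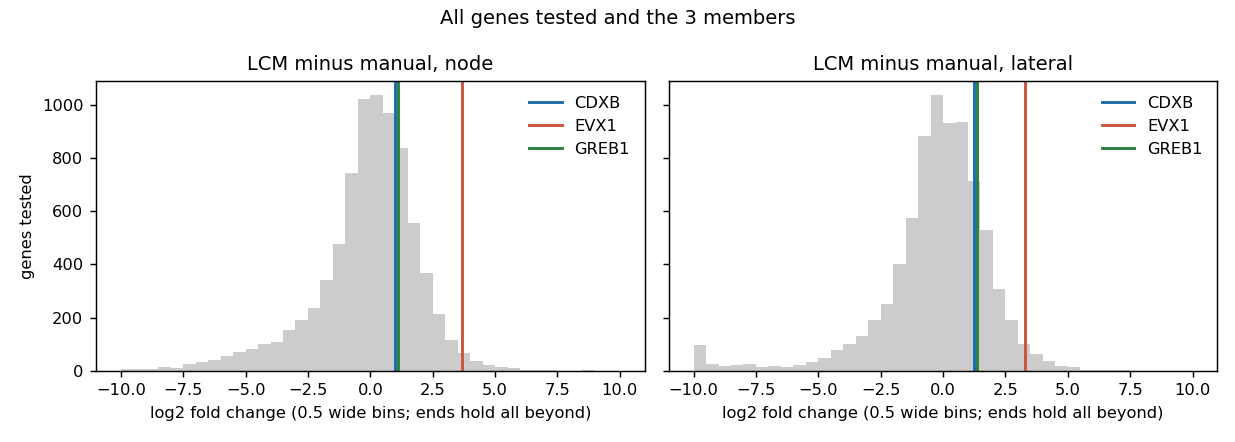
Number of genes tested by log2 fold change of LCM minus manual tissue, in bins 0.5 wide, for node and lateral libraries, with lines at the 3 members. CDXB and GREB1 fall on the right flank of the main peak in both panels, whereas EVX1 lies in the right tail at 3.69 and 3.30.

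The order of group means was not the same for the 3 genes. EVX1 ran from manual node over manual lateral and LCM node to LCM lateral, and only the step from manual lateral to LCM node exceeded the spread of both neighbours. CDXB ran from manual lateral over manual node and LCM node to LCM lateral, and again only the step between methods exceeded that spread. GREB1 ran from manual node over manual lateral and LCM node to LCM lateral, and only the last step, from 12511.3 to 20510.5, exceeded the SDs of both neighbours. The spread within groups was small for CDXB, with an SD of 0.44 log2 CPM pooled over the 4 groups, against a median of 0.70 for the 500 genes nearest to it in level. For EVX1 it was 1.10 against 1.87 and for GREB1 0.72 against 0.53. GREB1 was thus the only member that varied more between embryos than the middle gene of its level.

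Relatives of the members gave context for CDXB. CDXB lies on chromosome 4 at 12065414 to 12074015 on the forward strand (whole-gene span from the deposited table, whose genome build the sources used here do not name). The gene directly before it, at 12044627 to 12058058 on the same strand, has no symbol in the deposited table and is HOXCDX1L in RefSeq's GRCg7b table, matched by gene ID. Its counts in manual embryos 1 to 3 were 2992, 2781 and 2208 in node and 1656, 2280 and 2713 in lateral tissue. In LCM embryos 1 to 3 they were 7122, 8305 and 7110 in node and 10072, 9898 and 11613 in lateral tissue. Like CDXB, it lay higher in all 6 LCM libraries than in any manual library and, on the normalized scale, it was lower in the node of all 3 LCM embryos and of 1 of the 3 manual embryos. Its LCM minus manual log2 fold change was 1.40 ± 0.45 in node and 2.03 ± 0.48 in lateral tissue (edgeR adjusted p = 0.381 and 0.241; DESeq2 adjusted p = 0.0581 and 0.00729), and the node value was 1.11 ± 0.38 with the carried share subtracted. The genes around this pair varied. CHIC1, the next gene after CDXB, was at -0.45 ± 0.89 in node and 0.36 ± 0.87 in lateral tissue. EPFIP1L, after CHIC1 and named through RefSeq, was at 2.47 ± 1.09 and 3.05 ± 0.87 (DESeq2 adjusted p = 0.161 and 0.00253). VEGFRKDRL, before HOXCDX1L and also named through RefSeq, was at -4.91 ± 1.99 in node tissue, with at most 4 counts in any LCM library. With the carried share subtracted, the node values of CHIC1, EPFIP1L and VEGFRKDRL were -0.56, 2.02 and -6.15.

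The other caudal genes were scarce. CDX1 had 236 and 427 counts in the node and lateral library of manual embryo 1, 0 in those of manual embryos 2 and 3, 1 and 2 in LCM embryo 1, 19 and 0 in LCM embryo 2, and 0 in both of LCM embryo 3. At the pooled carried share of manual lateral embryo 1, the LCM node library of embryo 2 would hold 26.6 counts of CDX1. It held 19, so that share is too high for this gene. The source of the 19 counts was not tested. CDX1 was thus well counted in 1 embryo, of 8 somites, and the LCM embryo of that stage had 3 counts of it. CDX2 had 18 and 7 counts in manual embryo 1, 11 and 3 in LCM embryo 3, and at most 2 in each other library. A count of 0 allows up to 3 counts in a library, for counting error only.

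EVX2, the other even-skipped gene, had 1 count in all libraries together. EVX1 is listed on chromosome 2 from 33041792 to 33229071, a span of 187280 bases that also holds a gene model labelled HOXA7 (ENSGALG00000011061) on the other strand, with 1 count in all. Whether counting used strand is not stated, so reads of transcripts on either strand within this span cannot be told apart. HOXA9, named through RefSeq, is the last HOXA model to start before EVX1, although the listed spans of HOXA4 and HOXA2 end nearer to it. It had 0 and 3 counts in LCM embryo 1 and 1368 to 1994 in LCM embryos 2 and 3, against 12 to 80 in manual embryos. EVX1 did not follow it in LCM embryo 1, which had the highest EVX1 counts, 2068 and 3038. For LCM minus manual, HOXA9 was at 4.63 ± 2.18 in node and 3.66 ± 1.86 in lateral tissue (edgeR adjusted p = 0.516 and 0.626). Both genes were thus higher by LCM in the fits, and whether they change together was not tested. HIBADH, on the other side of EVX1, had 0 to 2144 counts in LCM and 148 to 984 in manual libraries. HOXA7 (ENSGALG00000026989), beyond HOXA9, was at 0.50 ± 0.50 for LCM minus manual in node (0.13 with the carried share subtracted) and 0.02 ± 0.60 in lateral tissue.

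GREB1 lies on chromosome 3 from 96906122 to 96965158, and no other gene of the table overlaps it. Its neighbours did not share 1 direction. For LCM minus manual in node tissue, E2F6 was at 2.25 ± 0.92 and ROCK2 at 1.68 ± 0.95 on the side before it, and LPIN1 at -1.52 ± 2.16 and TRIB2 at 0.60 ± 0.50 after it. After subtraction of the carried share these were 1.83, 1.56, -4.51 and 0.33. In lateral tissue they were at 2.33 ± 1.76, 1.12 ± 1.42, -5.60 ± 1.97 and 0.76 ± 0.72, and LPIN1 had a DESeq2 adjusted p of 0.0108.

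GREB1L, the relative of GREB1 on chromosome 2, was counted 1471, 167 and 610 times in manual node and 1246, 492 and 568 times in manual lateral tissue of embryos 1 to 3. By LCM the node gave 552, 61 and 95 counts and lateral tissue 2707, 1583 and 410. GREB1L was lower in the node of all 3 LCM embryos, as GREB1 was on the authors' scale, by a wider margin. Its node minus lateral log2 fold change was -2.85 ± 1.17 in LCM embryos (edgeR adjusted p = 0.906; DESeq2 adjusted p = 0.00291) and -0.25 ± 1.11 in manual embryos (edgeR adjusted p = 1.0). The LCM value was -3.85 ± 1.98 with the carried share subtracted. DESeq2 called 338 genes (3.86% of 8755) lower in the node of LCM embryos. The difference of both effects was -2.59 ± 1.59 and did not pass (edgeR adjusted p = 1.0; DESeq2 adjusted p = 0.156).

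**Figure D4:**
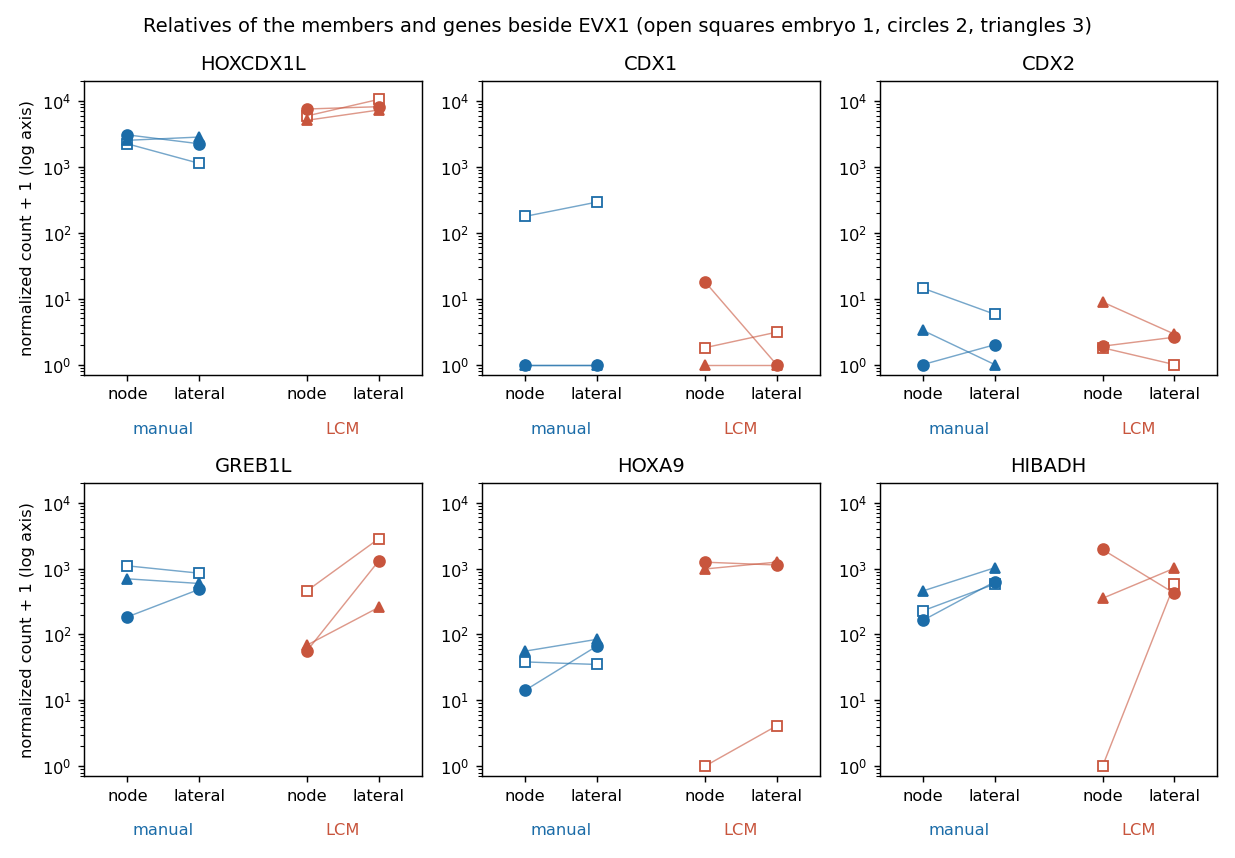
Normalized counts plus 1 (log axis) per library of the CDX relatives HOXCDX1L, CDX1 and CDX2, of GREB1L, and of HOXA9 and HIBADH on either side of EVX1, with libraries of an embryo joined. HOXCDX1L is higher in all LCM libraries, CDX1 is highest in both libraries of manual embryo 1, and HOXA9 is near 0 in LCM embryo 1.

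Other genes of the elongating axis were looked up by lists made with earlier results of these data known. Of the 24 axial progenitor genes found, 21 were tested, and 17 had positive and 4 negative node minus lateral values over both methods, with a median log2 fold change of 1.22. Over all genes tested 57.8% were positive and the median was 0.171. With the carried share subtracted the list median was 0.65, with 17 positive. No member of the list passed in edgeR, and 5 had an unadjusted p under 0.05, against 3.41% of all genes. DESeq2 called 3 higher, against 2.1% of all genes. These were TBXT, FGF4 (DESeq2 adjusted p = 0.0305), a fibroblast growth factor, and SALL1 (0.0293), a zinc finger factor, the last 2 chosen after their values were seen. TBXT (T) was at 2.20 ± 0.48 (edgeR adjusted p = 0.579; DESeq2 adjusted p = 0.00254), FGF18, another fibroblast growth factor, at 2.90 ± 1.45 and the Wnt ligand WNT8C at 2.17 ± 1.13. WNT5B was at 1.55 ± 2.11.

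Of 24 genes of the Wnt, FGF and retinoic acid pathways, which act on Cdx genes in mouse, 21 were tested, and 19 were positive and 2 negative, with a median of 0.77 (0.65 with the carried share subtracted). The list shares several genes with the one before. Over all genes tested 57.8% were positive. None of the list passed in edgeR, and 5 had an unadjusted p under 0.05, against 3.41% of all genes. DESeq2 called 3 higher, against 2.1% of all genes. These were RXRG, LEF-1 (0.0276), a Wnt pathway factor, and FGF4, which is the call already given for the list before. RXRG, a retinoid receptor, was at 7.00 ± 2.47 (DESeq2 adjusted p = 0.0197), although manual embryo 1 had 1024 node and 2980 lateral counts of it. ALDH1A2, an enzyme that makes retinoic acid, was at 3.32 ± 2.04. RXRG was at 5.41 ± 2.59 and ALDH1A2 at 1.48 ± 1.91 with the carried share subtracted.

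Of 23 HOX gene models 18 were tested, and 10 were positive and 8 negative for node minus lateral, with a median of 0.15. With the carried share subtracted 8 were positive and the median was -0.06. None passed in edgeR or DESeq2, and 0 had an unadjusted edgeR p under 0.05. HOXC9 was at -0.85 ± 1.27, HOXA9 at -0.82 ± 1.01, HOXB3 at -0.59 ± 0.80 and HOXB5 at -0.27 ± 0.85. HOXC9 had 0 counts in both libraries of LCM embryo 1 and 351 to 964 in LCM embryos 2 and 3.

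Of 11 genes listed as partners of GREB1 in estrogen receptor signalling 7 were tested, and 3 were positive and 4 negative, with a median of -0.05 (-0.22 with the carried share subtracted). None passed in edgeR, 0 had an unadjusted p under 0.05 and DESeq2 called 1 lower (TFAP2C, a transcription factor, adjusted p = 0.0291), against 0.787% of all genes. NRIP1, a nuclear receptor cofactor, was at 0.69 ± 0.94, the estrogen-related receptor ESRRG at -0.30 ± 0.60, NCOA3, a receptor coactivator, at -0.12 ± 1.27 (-0.94 with the carried share subtracted) and XBP1 at -0.05 ± 0.84. The estrogen receptor gene ESR2 had 1 count in all libraries. ESR1, the other estrogen receptor gene, was not found under that symbol, so its level is not known here. PGR, the progesterone receptor gene, had 204 counts in manual lateral tissue of embryo 3 and 2 in LCM node tissue of embryo 3.

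**Figure D5:**
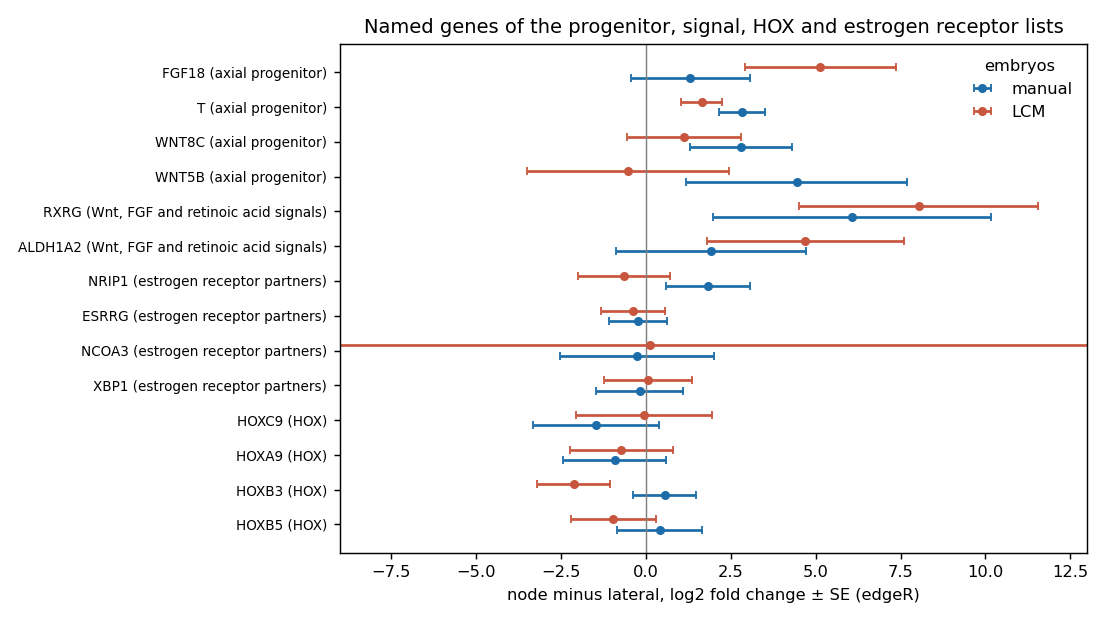
Node minus lateral log2 fold changes with standard errors in manual and LCM embryos for up to 4 genes of each of the 4 lists. The genes were picked for the largest absolute node minus lateral change in these data, so they do not describe the whole lists. The picked progenitor and signal genes lie mostly right of 0 and the picked HOX and estrogen receptor genes around it. The LCM bar of NCOA3 (0, 94 and 55 node counts) runs past both ends of the axis.

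The same lists were set beside the difference between methods. Over all genes tested, 53.3% were positive for LCM minus manual in node and 49.2% in lateral tissue. Of the axial progenitor genes, 18 of 21 were positive in node (median 1.63) and 14 of 18 in lateral tissue (median 1.52), and none passed in edgeR. DESeq2 called DLL1, a Notch ligand gene, and FGF3 higher in node, where it called 2.29% of all genes higher. In lateral tissue it called DLL1 and FGF8 higher, against 1.55% of all genes.

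Signal genes were positive in 17 of 21 cases in node (median 1.67) and in 14 of 17 in lateral tissue (median 1.05). DESeq2 called AXIN2, a Wnt target gene, and FGF3 higher in node, against 2.29% of all genes. In lateral tissue it called ETV5 and FGF8 higher, against 1.55% of all genes. FGF3 and FGF8 are the same calls as those given for the progenitor list. The estrogen receptor list was positive in 1 of 5 cases in node (median -0.51), where DESeq2 called the coactivator gene NCOA2 lower (adjusted p = 0.0231), against 3.08% of all genes. In lateral tissue it was positive in 2 of 5 (median -0.34). HOX models were positive in 12 of 16 cases in node (median 0.61) and in 15 of 16 in lateral tissue (median 1.20). There DESeq2 called HOXA3 higher, against 1.55% of all genes. With the carried share subtracted, the node medians were 1.17, 1.38, -0.80 and 0.39 for the progenitor, signal, estrogen receptor and HOX lists.

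The summed normalized count of the progenitor list ran from 32964 to 52537 in manual and from 84226 to 103773 in LCM node libraries. In lateral libraries it ran from 19151 to 32929 and from 58889 to 82693. The list total thus separated the methods without overlap. So did the signal list total, at 25671 to 39507 in manual and 55881 to 69886 in LCM node libraries. In lateral libraries it ran from 25165 to 35214 and from 46902 to 54324. The HOX and estrogen receptor totals overlapped between methods. Of single genes 2.09% separated in this way, which is no background for a sum. The progenitor total leans on the most counted genes, such as SALL1 and TBXT, and does not describe each gene of the list. SALL1 itself overlapped in node, with 33219 counts in manual embryo 1 and 24054 in LCM embryo 1.

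Markers of tissues that a dissection could include were summed in the same way. The organiser and notochord list (10 genes) reached 12197 to 27812 in manual node and 17786 to 30738 in LCM node libraries, and 1067 to 5411 and 3979 to 20187 in the lateral libraries. The neural plate list (6 genes) reached 5684 to 34974 and 6974 to 19741 in node, and 5473 to 66084 and 18605 to 48499 in lateral tissue. The ranges of both lists overlapped between methods in node and in lateral tissue. In node tissue the organiser total leans on TBXT and the neural plate total on the gene FABP7, so neither describes each gene listed. SHH, on the organiser list, was counted 57, 7 and 38 times in the manual nodes of embryos 1 to 3. By LCM its count was 0 in every library. Of 8 organiser genes tested for LCM minus manual in node, 4 were positive and 4 negative.

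The presomitic mesoderm list (9 genes) reached 5580 to 9398 in manual and 9696 to 21476 in LCM node libraries, and 3385 to 5870 and 2659 to 16032 in lateral libraries. The node ranges did not overlap, but the genes of the list did not all move one way. Of single genes, 8.9% had all LCM node libraries above all manual ones, which is no background for a sum. Of 7 tested, 5 were positive and 2 negative for LCM minus manual in node. DESeq2 called 1 higher and 1 lower, against 2.29% and 3.08% of all genes. DLL1, which is on the progenitor list too, went from 470, 57 and 122 counts in manual to 9448, 5840 and 6572 in LCM node libraries. TBX18, a T-box gene, went from 27, 239 and 377 to 0, 6 and 0. The part of this tissue in the higher CDXB, EVX1 and GREB1 values was not tested.

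Surface ectoderm (12 genes) reached 4113 to 7882 and 7397 to 8240 in node, and 9360 to 26496 and 12743 to 22771 in lateral tissue. The endoderm list (10 genes) reached 3381 to 5422 in manual and 2428 to 3367 in LCM node libraries, and 4876 to 9200 and 269 to 3724 in lateral libraries. The endoderm sum was thus lower by LCM in both tissues, without overlap, though the node ranges nearly met, at 3381 and 3367. How often sums of other genes separate in this way was not tested. Of 3 genes tested, 1 was positive and 2 were negative for LCM minus manual in node, and 3 were negative in lateral tissue. EPCAM was the most counted gene of the list in each LCM node library. It had 3127, 2118 and 3186 counts in manual and 2920, 3307 and 3436 in LCM node libraries. In lateral libraries EPCAM had 2643, 4847 and 4531 counts by hand and 255, 4513 and 3131 by LCM. It led the list in each lateral library except that of manual embryo 1, where TTR had 4485 counts and APOA1 3700. TTR had 76 and 114 counts in the lateral libraries of manual embryos 2 and 3. The lateral sum therefore does not describe each gene listed. The part of endoderm in the members' values was not tested. Blood and endothelium genes (4 in the table) reached at most 705 in node libraries and 12394 in an LCM lateral library.

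As a description over 12 libraries, which share embryos in pairs and fall into the 2 methods, named genes were ranked by the Pearson correlation of log2 CPM with each member. Nearest to CDXB were TOMM22 (r = 0.947), which encodes a subunit of the mitochondrial import receptor, a kinase gene, NEK4 (0.946) and MRPL1 (0.944), a mitochondrial ribosomal protein gene. Nearest to EVX1 were PLK1 (0.95), a mitotic kinase gene, ETV5 (0.948), an ETS transcription factor of FGF signalling, and ANKRD11 (0.942). Nearest to GREB1 were COMMD5 (0.93), CLTA (0.924), the clathrin light chain A gene, and SIKE1 (0.901). Of 4318 genes ranked, EVX1 stood 132nd (r = 0.795) and GREB1 166th (0.78) in likeness to CDXB, while GREB1 stood 513th (0.626) in likeness to EVX1. The 5% of genes most like began at r = 0.75 for CDXB and 0.759 for EVX1. ETV5 had 104 to 817 counts in manual and 996 to 2334 in LCM libraries.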

How the data were processed

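RNA (1 to 7 ng in all) was purified on miRNeasy columns and amplified with a SMARTer low-input kit, per the labels' protocols. The submitters' processing notes list Bowtie2 2.2.3 and give it no role. No source used here names the counter, genome build, annotation release or use of strand. The authors deposited whole-number read counts for each Ensembl gene. They also deposited a normalized signal, which equals the count multiplied by 1 scaling factor of its library (largest deviation 0.0%). Intervals and floors of counts cover counting error only.

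The main test was the quasi-likelihood test of edgeR 4.0.16 (R 4.3.3) on counts, with TMM scaling. Low genes were removed by filterByExpr (at least 10 counts, total at least 15). Benjamini-Hochberg adjustment ran over all genes tested, with calls at an adjusted p below 0.05. Node and lateral tissue were compared in all 12 libraries with the embryo, which the labels name, as a block. Correlations of the paired deviations ran from 0.116 to 0.473 in manual and from 0.03 to 0.07 in LCM embryos. LCM and manual tissue were compared within the 6 node and the 6 lateral libraries. A standard error is the size of the log2 fold change divided by the root of F. DESeq2 1.42.0 and limma 3.58.1 were alternatives. Only the main edgeR fits were run on simulated counts, which held no embryo effect. Their spread was also set lower than that of these data. Here edgeR's common coefficient of biological variation was 118.9% to 129.8%. That run therefore cannot show what the test finds at the spread of these data. The difference between methods in the node minus lateral effect was not part of that run. Log2 CPM used a prior count of 2, and the plot of relatives a pseudocount of 1. Symbols came from the authors for 11420 genes and from RefSeq for 816. The members and lists were chosen with earlier results of these data known. Named were the members, their relatives, the nearest 2 genes on either side, the 3 genes most like each, and up to 4 genes per list with an average log2 CPM of at least 3 and the largest node minus lateral change.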

Additional observations from a re-analysis of the deposited data

How the results depend on the processing

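Of the member values recomputed under other settings, 228 kept direction and call, 2 passed in addition and 13 changed sign. The 228 include the EVX1 value that was 0 to 2 decimals, named below. No member was called in a main fit, so a call could only be gained, and a kept call says little. Both added calls were EVX1, LCM minus manual, in DESeq2 (3.67 in node and 3.35 in lateral tissue). For node minus lateral in LCM embryos, CDXB went from 0.13 to -0.05 with DESeq2 size factors, in DESeq2 and in limma on normalized values, and to -0.12 with the carried share subtracted. EVX1 there went from 0.27 to -0.01 in limma voom and to -0.09 without the replicate block (the embryo), and was 0 to 2 decimals with the carried share subtracted. Leaving out 1 embryo of either method gave -0.09 to 0.31 for CDXB and -0.13 to 0.87 for EVX1 in LCM embryos, and -0.52 to 0.10 for GREB1 in manual embryos. The negative CDXB values came without manual embryo 1, 2 or 3 (-0.09, -0.08 and -0.08). Without LCM embryo 1, 2 or 3 it was 0.31, 0.01 and 0.19. The cause was not tested. The fit without the replicate block changed no call of a member. In the 9-somite embryos alone, an alternative chosen after seeing the data, the difference between methods in the node minus lateral effect of GREB1 went from -0.55 to 0.22.

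Counts of genes called moved more. In the order both methods, manual, LCM, difference, LCM minus manual in node and in lateral tissue, unfiltered edgeR fits called 36, 7, 33, 5, 50 and 124 genes, and DESeq2 242, 41, 869, 255, 394 and 369. The 2 edgeR calls in LCM embryos became 0 in limma voom, in limma on normalized values and with the carried share subtracted, and 1 without the replicate block. The 9-somite embryos alone gave 7, 3 and 1 for both methods, manual and LCM, and 1 and 2 for LCM minus manual in node and lateral tissue. Leaving out 1 embryo gave 0 to 4, 0 to 1 and 1 to 9 for the first 3 comparisons, and 0 to 13 and 0 to 4 for the last 2. Low counts limit CDX1, CDX2, EVX2 and the manual node value of EVX1 in embryo 2.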
